A study of Mus musculus with 6 samples.

Results

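Metallothionein genes and the genes that move zinc across membranes were examined in livers of C57BL/6 mice after acetaminophen (APAP) overdose. The 9 members were the rows of the deposited expression table named Mt1, Mt2, Mtf1, Slc39a14, Slc39a4, Slc39a5, Slc39a8, Slc30a1 and Slc30a10, of 28476 genes in all, and each symbol was found once. All 6 libraries came from mice that were fasted overnight, received 300 mg/kg APAP and were sampled 24 h later. In 3 of them the genotype label was Flox and in 3 it was Nedd4 HepKO, called HepKO below. Animals without APAP are not analysed here, so each difference is between genotypes that both received the drug. Age, sex and the Cre or other means of the deletion are unstated in the sources used here.

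Metallothioneins are small cysteine-rich proteins that bind zinc and copper and can scavenge reactive species. The liver makes large amounts of MT1 and MT2 when zinc rises, when glucocorticoids or interleukin 6 act on hepatocytes, and under oxidative stress. MTF1 is the transcription factor that senses free zinc and binds metal response elements in the promoters of metallothionein genes and of Slc30a1. Proteins of the SLC39 (ZIP) family bring zinc into the cytosol, and proteins of the SLC30 (ZnT) family take it out of the cytosol. ZIP14, ZIP8 and ZnT10 also carry manganese.

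The promoters of Mt1 and Mt2 are shown because these genes rose together, and that of Slc30a1 because it is another textbook target of MTF1. Sequences are from RefSeq on GRCm38.p6, whose table held 9 entries for 7 of the 9 members; Slc39a14 and Slc39a4 had no entry. The longer stretches run from 250 to 16 bases before the annotated start, 5′ to 3′, and the shorter ones cover matches in the first 50 bases after it. That start is RefSeq's: the deposited table begins Mt1 at 94179082, Mt2 at 94172664 and Slc30a1 at 191906767. By the table the shorter Mt2 stretch therefore lies before the start. The start used in these livers was not measured. For Mt1 too, the labels below hold for the RefSeq start only. A different start would shift the window and the matches counted in it. Capitals mark the core letters of the metal response element, TGCACNC or TGCGCNC, on either strand.
Mt1 before the start, chr8:94178839-94179073, plus strand: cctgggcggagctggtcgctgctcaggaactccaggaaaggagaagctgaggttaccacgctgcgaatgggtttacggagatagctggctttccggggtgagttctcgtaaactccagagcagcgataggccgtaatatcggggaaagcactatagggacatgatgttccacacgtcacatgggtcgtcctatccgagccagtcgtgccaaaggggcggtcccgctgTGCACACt
Mt1 after the start, chr8:94179089-94179118, plus strand: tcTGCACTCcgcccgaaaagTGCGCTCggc
Mt2 before the start, chr8:94172368-94172602, plus strand: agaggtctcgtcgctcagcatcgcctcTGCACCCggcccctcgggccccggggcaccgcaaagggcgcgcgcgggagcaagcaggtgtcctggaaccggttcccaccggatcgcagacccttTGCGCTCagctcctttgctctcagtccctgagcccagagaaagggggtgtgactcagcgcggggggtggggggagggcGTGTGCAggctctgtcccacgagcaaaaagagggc
Mt2 after the start, chr8:94172620-94172649, plus strand: tcGTGCGCAggcccaggggcgtgtgctggc
Slc30a1 before the start, chr1:191906531-191906765, plus strand: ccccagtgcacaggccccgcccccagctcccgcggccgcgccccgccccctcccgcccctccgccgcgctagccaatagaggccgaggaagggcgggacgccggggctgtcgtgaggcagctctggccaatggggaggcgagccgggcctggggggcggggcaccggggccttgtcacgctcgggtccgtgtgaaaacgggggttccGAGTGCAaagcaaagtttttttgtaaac
Slc30a1 after the start, chr1:191906801-191906830, plus strand: cctccgggccGAGCGCAgtcgccgcggacg
The full window of 300 bases held 4 matches for Mt2, 3 for Mt1 and 2 for Slc30a1. The windows of Mt3 and Mt4, which are not printed, held 1 match each. Slc30a10 had 3, of which 2 overlap each other on opposite strands, and Mtf1 had 0. Slc39a8 had 0 and 1 in its 2 windows, and Slc39a5 had 1 and 0. Of 32817 such windows over all genes, 25.7% held at least 1 match, 7.12% at least 2, 1.97% at least 3 and 0.518% at least 4. The antioxidant response element core, TGACNNNGC, matched once in the window of Mt2, once in that of Slc30a1, 1 and 0 times in those of Slc39a8 and 0 and 2 times in those of Slc39a5, and 12.4% of all windows held at least 1. The antioxidant core matched 0 times in the windows of Mt1, Mt3, Mt4, Mtf1 and Slc30a10. A match describes letters in the window only.

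The libraries had 456176 to 496303 summed FPKM (fragments per kilobase of transcript, scaled to the fragments of the library). In each, between 10402 and 10763 genes reached 1 FPKM. Being scaled in this way, the sums do not show the size of a library, and the read depth is unknown. HepKO replicate 1 had 24.6% of its FPKM in mitochondrial genome transcripts, against 16.7% to 18.3% in the other 5 libraries. Nedd4, the targeted gene, stood at 2.18, 2.59 and 2.23 FPKM in Flox livers against 0.618, 0.666 and 0.565 FPKM in HepKO livers, with no overlap. Of 5 hepatocyte markers, Hnf4a fell (log2 difference -0.41, limma adjusted p = 0.026), and Ttr (-0.41, adjusted p = 0.053), Alb (0.058), Apoa1 (0.21) and Apob (0.97) did not pass. Apob was split among the HepKO livers, with 164, 50.2 and 178 FPKM in replicates 1 to 3. The Flox livers had 55.8, 61.7 and 55.8 FPKM of Apob. In bulk liver, fewer cells of a type and less RNA per cell cannot be told apart.

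Of the 9 members, 8 passed the filter on low values (0.5 FPKM or more as the mean of all libraries) and were tested with limma on log2(FPKM + 1). Mt1, Mt2 and Slc39a14 rose in HepKO livers, none of the 8 fell, and 5 did not pass at an adjusted p of 0.05. Over all 12712 genes tested, 9.33% were called higher in HepKO livers and 11% lower, or 20.3% in either direction. The median log2 difference of the 8 members was 0.29, and that of all genes tested was -0.060. In 4 of the 8 the groups did not overlap and HepKO was higher, and in 1 HepKO was lower, against 17.2% and 25.2% of all genes tested (42.4% in either direction).

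The metallothioneins stood far above the other members in level. Mt1 (ENSMUSG00000031765, chromosome 8, 94179082 to 94180327, GRCm38) had 656, 517 and 574 FPKM in Flox replicates 1 to 3 and 2196, 2136 and 1992 FPKM in HepKO replicates 1 to 3. Each HepKO liver exceeded each Flox liver, and the spread within each group was small beside the gap between them. The means were 582 ± 69.7 and 2108 ± 105 FPKM (SD, n = 3), a 3.62-fold rise (log2 difference 1.86, SE 0.12, limma adjusted p = 0.00046).

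Mt2 (ENSMUSG00000031762, chromosome 8, 94172664 to 94173568) had 764, 536 and 675 FPKM in Flox replicates 1 to 3 against 1973, 2259 and 2152 FPKM in HepKO replicates 1 to 3. The groups were again separate, and Flox replicate 2 was the lowest of all libraries for both genes. Mt2 rose 3.23-fold, from 659 ± 115 to 2128 ± 144 FPKM (SD, n = 3; log2 difference 1.70, SE 0.15, limma adjusted p = 0.0012). In the authors' deposited table the q-values were 2.12e-19 for Mt1 and 1.79e-15 for Mt2.

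**Figure D1:**
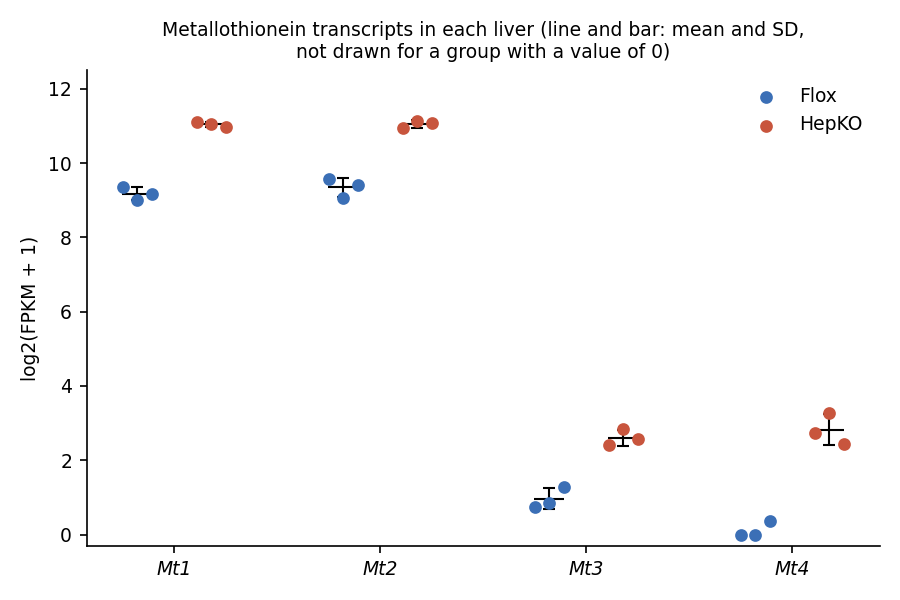
Level of the 4 metallothionein genes in each liver as log2(FPKM + 1), with Flox in blue and HepKO in red, 3 livers each; lines and bars are the mean and SD, left out where a group holds a value of 0. All HepKO points lie above all Flox points for each gene, and Mt3 and Mt4 stay below 10 FPKM.

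Mt1 and Mt2 together made up 0.229% to 0.311% of the summed FPKM of the Flox livers and 0.840% to 0.913% of that of the HepKO livers. By level Mt1 ranked between 89 and 102 among 28476 genes in Flox livers and between 45 and 49 in HepKO livers. The ratio of Mt1 to Mt2 FPKM was 0.850 to 0.965 in Flox and 0.925 to 1.11 in HepKO livers, so the balance between the genes overlapped between groups. Among all genes tested, 1.05% had a larger absolute log2 difference than Mt1 and 1.46% a larger one than Mt2. No stretch of 31 bases was shared between the annotated transcripts of Mt1, Mt2, Mt3 and Mt4 (0 of 1273 such stretches of Mt1). Only exact stretches were compared. Reads placed with mismatches, such as from Mt1 or Mt2 onto Mt3 or Mt4, were not examined.

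Mt3 and Mt4, the other metallothionein genes, lie beside Mt1 and Mt2 on chromosome 8 and are known for expression in brain and in stratified epithelium, respectively. Mt3 had 0.686, 0.810 and 1.44 FPKM in Flox livers and 4.36, 6.18 and 4.92 FPKM in HepKO livers (log2 difference 1.65, SE 0.18, limma adjusted p = 0.0022). Mt4 was listed at 0 in Flox replicates 1 and 2 and at 0.279 FPKM in replicate 3, and had 5.68, 8.67 and 4.44 FPKM in HepKO livers (log2 difference 2.70, SE 0.23, limma adjusted p = 0.0010). Both rose from levels of at most 1.44 FPKM in the Flox livers, and Mt4 passed the filter only through the HepKO livers, so that it had to differ. Mt3 and Mt4 together summed to 9.36 to 14.8 FPKM in HepKO livers, against at least 4144 FPKM for Mt1 and Mt2.

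The transcripts around these genes were chosen after their values were seen. From the start of Mt4 to the end of Mt1 the cluster spans 43.1 kb. Gm45774, annotated on the opposite strand across Mt2, had 54.3, 17.1 and 25.7 FPKM in Flox livers and 89.8, 85.6 and 134 FPKM in HepKO livers (log2 difference 1.77, SE 0.40, limma adjusted p = 0.026). Its call was lost without any 1 of 5 libraries (adjusted p up to 0.080), Flox replicate 1 being the exception. It stood at 3.19% to 7.10% of the Mt2 level in Flox and 3.79% to 6.20% in HepKO livers, and the library kit marks strand, but no source used here says that the counting made use of it, so its reads and those of Mt2 cannot be told apart. Within 200 kb on each side of Mt1, 11 genes were tested. The 5 of the cluster were called higher, and 0 of the other 6, which include Nup93 and Bbs2, were called (limma; log2 differences -0.41 to 0.28, smallest adjusted p = 0.16, with 0 of the 6 at an unadjusted p under 0.05). The shares over all genes tested were 9.33% higher and 20.3% in either direction. Of the 5, Mt4 had to differ by the filter, and Gm45774 cannot be told apart from Mt2.

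**Figure D2:**
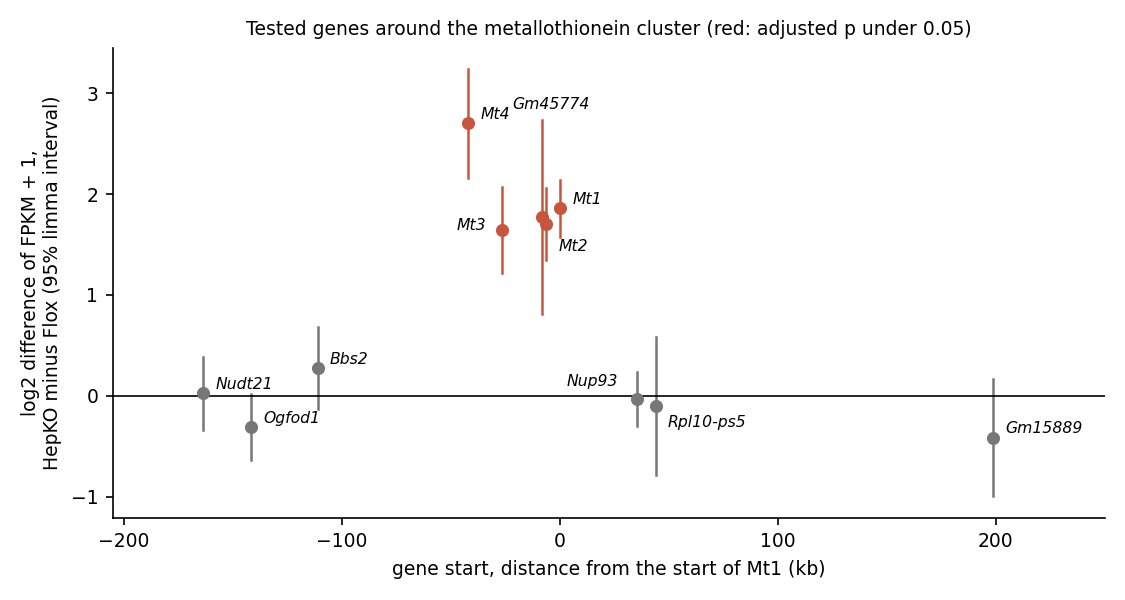
Log2 difference of FPKM + 1 (HepKO minus Flox) of the 11 tested genes that start within 200 kb of Mt1, against the distance of each start from that of Mt1 in kb; bars are 95% limma intervals and red marks an adjusted p under 0.05. The 4 metallothionein genes and Gm45774 lie between 1.65 and 2.70, and the other 6 between -0.41 and 0.28.

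Mtf1 (ENSMUSG00000028890, chromosome 4, 124802104 to 124849379), the zinc sensor, was expressed at a low level and did not pass. It had 1.496, 1.72 and 2.40 FPKM in Flox livers and 1.45, 1.60 and 1.66 FPKM in HepKO livers. The groups overlapped, and Flox replicate 3 was the highest library. The log2 difference was -0.15 (95% limma interval -0.48 to 0.18, adjusted p = 0.48). Genes on the opposite strand overlap Mtf1 (1110065P20Rik), Slc30a1 (1700034H15Rik), Slc30a10 (Gm2061) and Slc39a8 (4933401H06Rik). On the same strand, n-R5s192 overlaps Mtf1, and Gm43428 and Gm43429 overlap Slc39a8. The FPKM of these 4 members may therefore hold reads of the overlapping genes, whereas Mt1, Slc39a14, Slc39a4 and Slc39a5 overlap no gene of the table.

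Slc30a1 (ENSMUSG00000037434, chromosome 1, 191906767 to 191913247) encodes ZnT1, which exports zinc across the plasma membrane. Its level was 9.04, 7.64 and 8.34 FPKM in Flox livers and 6.67, 7.51 and 7.96 FPKM in HepKO livers. The groups overlapped, and HepKO replicate 1 was the lowest library. The log2 difference was -0.16 (95% limma interval -0.42 to 0.11, adjusted p = 0.35). The activity of MTF1 was not tested.

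Slc39a14 (ENSMUSG00000022094, chromosome 14, 70303469 to 70351425) encodes ZIP14, an importer of zinc, manganese and iron that interleukin 6 is known to induce in liver. It had 20.7, 27.8 and 25.4 FPKM in Flox livers and 38.0, 40.3 and 36.0 FPKM in HepKO livers. Every HepKO liver was higher than every Flox liver. The means were 24.6 ± 3.59 and 38.1 ± 2.13 FPKM (SD, n = 3), a 1.55-fold rise (log2 difference 0.62, SE 0.13, limma adjusted p = 0.020). It no longer passed when HepKO replicate 1 or 2 (adjusted p = 0.052 and 0.076) or Flox replicate 3 (0.057) was left out, while the log2 difference stayed between 0.50 and 0.71 with any 1 library left out. The authors' deposited table gives it a q-value of 0.00363.

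The other ZIP importers among the members lay lower and did not pass. Slc39a4 (ENSMUSG00000063354, chromosome 15, 76612383 to 76617384), the zinc importer best known from the intestine, had 5.94, 12.3 and 8.13 FPKM in Flox and 9.46, 11.1 and 11.4 FPKM in HepKO ones. The Flox livers spanned the HepKO range, with replicate 2 the highest of all (log2 difference 0.30, 95% limma interval -0.26 to 0.85, adjusted p = 0.41). The difference was 0.074 without Flox replicate 1 and 0.54 without Flox replicate 2.

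Slc39a8 (ENSMUSG00000053897, chromosome 3, 135825279 to 135888572) encodes ZIP8, the closest relative of ZIP14. It had 2.04, 2.13 and 1.84 FPKM in Flox livers and 1.29, 0.886 and 1.54 FPKM in HepKO livers. The groups did not overlap and HepKO was lower, the opposite direction to Slc39a14, but the test was not passed (log2 difference -0.43, 95% limma interval -0.75 to -0.11, adjusted p = 0.068). It passed without HepKO replicate 3 (limma adjusted p = 0.048). That library was the HepKO liver nearest to the Flox livers, so this pass is no support for a difference.

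Slc39a5 (ENSMUSG00000039878, chromosome 10, 128395931 to 128401229) encodes ZIP5, known from the basolateral membrane of gut and pancreatic cells, and it was not tested because its mean was under 0.5 FPKM. It had 0.249, 0.420 and 0.238 FPKM in Flox livers, and in HepKO livers 0.0290 and 0.0278 FPKM in replicates 1 and 2, with replicate 3 listed at 0. All HepKO values lay below all Flox values. With no filter it was called lower (log2 difference -0.35, limma adjusted p = 0.029), at levels where the reads behind a value are unknown.

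Slc30a10 (ENSMUSG00000026614, chromosome 1, 185454848 to 185468762) encodes ZnT10, which exports manganese from hepatocytes. It had 3.14, 3.23 and 2.88 FPKM in Flox livers and 3.55, 3.92 and 4.40 FPKM in HepKO livers. The groups did not overlap and HepKO was higher, and the test was not passed (log2 difference 0.28, 95% limma interval 0.024 to 0.53, adjusted p = 0.11). After median-ratio rescaling it passed (log2 difference 0.37, adjusted p = 0.040).

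**Figure D3:**
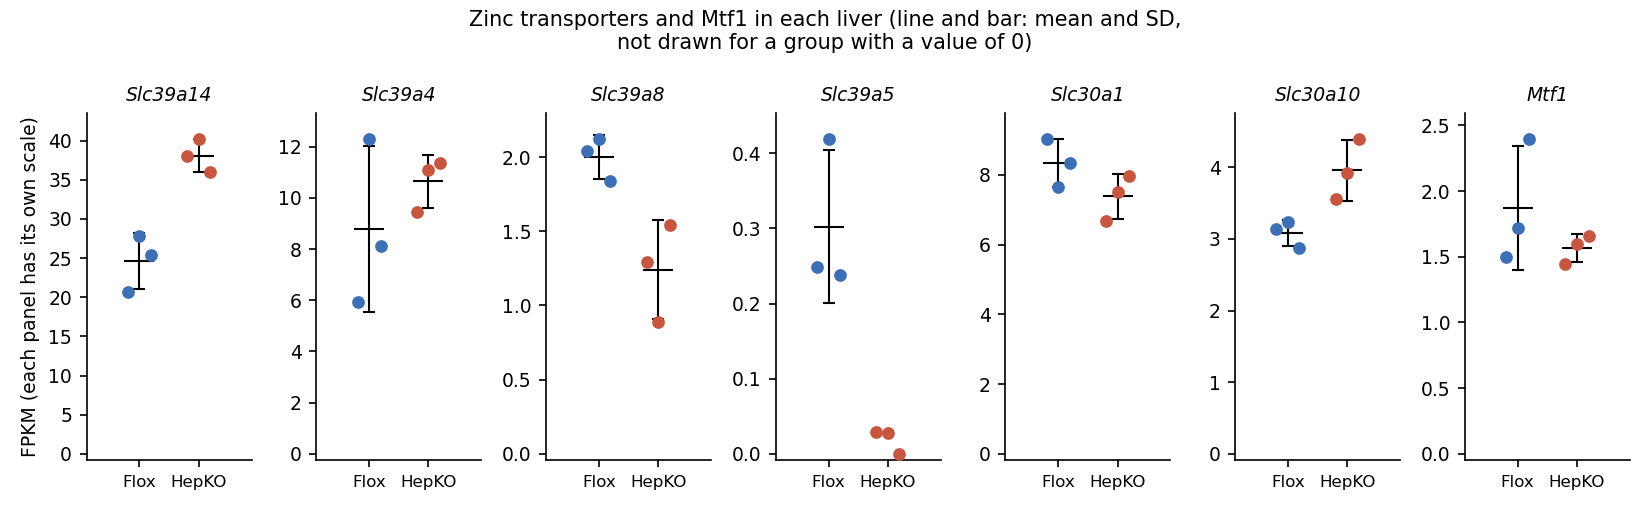
FPKM of the 6 zinc transporters and Mtf1 in each liver, each panel on its own linear scale from 0, with Flox in blue and HepKO in red, 3 livers each; lines and bars are the mean and SD, left out for the HepKO livers of Slc39a5, where a value is 0. The groups are separate for Slc39a14, Slc39a8, Slc39a5 and Slc30a10 and overlap for Slc39a4, Slc30a1 and Mtf1.

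In Flox livers the members ranked by level as Mt2, Mt1, Slc39a14, Slc39a4, Slc30a1, Slc30a10, Slc39a8, Mtf1 and Slc39a5 (FPKM, which is per length). Neighbours whose libraries overlapped were Mt2 and Mt1, Slc39a4 and Slc30a1, and Slc39a8 and Mtf1. In HepKO livers the order was the same except that Mtf1 (1.57 FPKM on average) stood above Slc39a8 (1.24 FPKM), a pair that overlapped there as well. In HepKO livers Slc39a4 and Slc30a1 did not overlap.

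The rest of both transporter families showed no call. Of the 20 other zinc transporters and metallothioneins, 16 were tested, and Mt3 and Mt4 were the only ones called. Among 8 ZIP importers 0 rose and 0 fell (limma; median log2 difference 0.13, smallest adjusted p = 0.053), and among 6 ZnT exporters 0 rose and 0 fell (median -0.23, smallest adjusted p = 0.072). An unadjusted p under 0.05 was reached by 5 of these importers and 2 of these exporters, and by 35.7% of all genes tested. With median-ratio rescaling, and with rescaling to equal sums that left aside the mitochondrial genes and the 50 highest genes, 5 of the 16 were called higher and 0 lower. The 3 added were Slc39a1, Slc39a10 and Slc30a7.

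Among these, Slc39a1, which encodes the plasma membrane importer ZIP1 and was the most abundant of the 20, had 42.6, 45.0 and 41.0 FPKM in Flox livers against 52.9, 53.3 and 53.9 FPKM in HepKO livers (log2 difference 0.31, limma adjusted p = 0.053). Slc39a10, which encodes the importer ZIP10, averaged 0.837 ± 0.115 FPKM in Flox livers against 1.498 ± 0.348 FPKM in HepKO livers (SD, n = 3; log2 difference 0.44, limma adjusted p = 0.059). The groups did not overlap for either gene. Both were chosen after their values were seen.

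**Figure D4:**
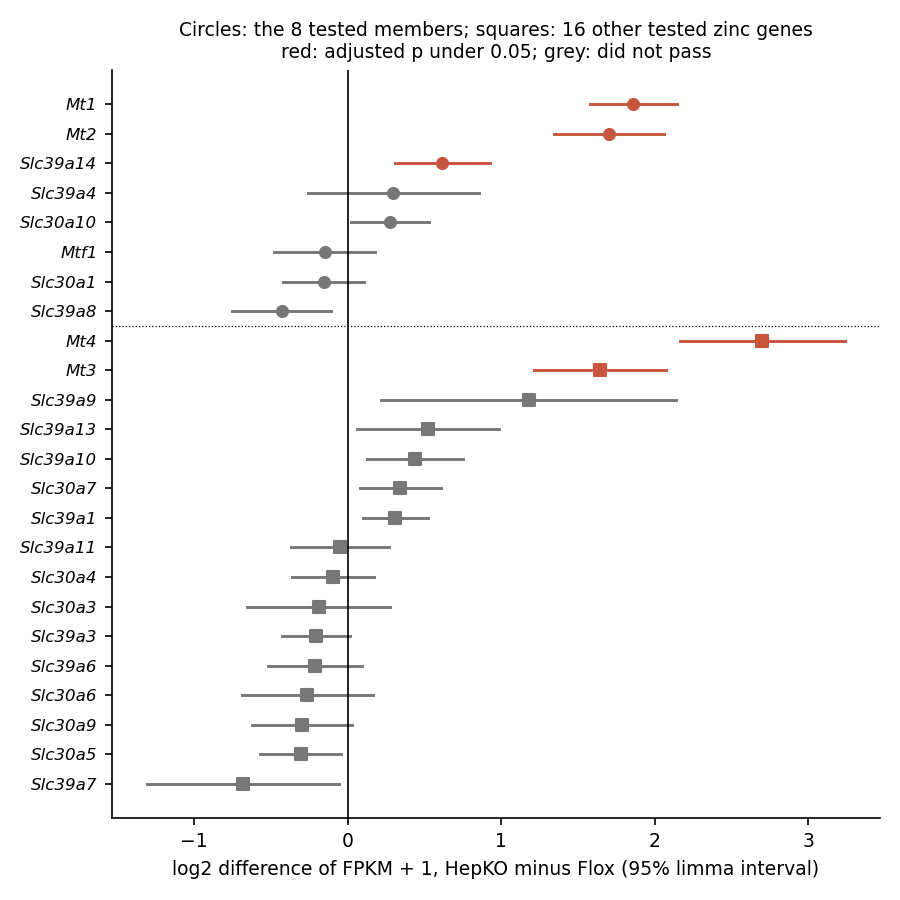
Log2 difference of FPKM + 1 (HepKO minus Flox) with its 95% limma interval for the 8 tested members (circles) and 16 other tested zinc genes (squares); red marks an adjusted p under 0.05. Mt1, Mt2, Slc39a14, Mt3 and Mt4 are red and to the right of 0, and no gene to the left of 0 is red.

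Copper, the other metal that metallothioneins bind, was examined through 13 tested genes of copper handling. Of these 1 rose and 4 fell, with a median log2 difference of -0.39, where 9.33% of all genes tested rose and 11% fell. Ccs, which encodes the copper chaperone of superoxide dismutase, fell from 39.9, 40.7 and 42.8 FPKM to 18.4, 26.8 and 22.7 FPKM (log2 difference -0.85, SE 0.14, limma adjusted p = 0.0095). Slc31a1, which encodes the high-affinity copper importer CTR1, fell from 31.5, 39.6 and 34.4 to 19.2, 18.7 and 21.1 FPKM (log2 difference -0.80, SE 0.12, limma adjusted p = 0.0057). Neither gene overlapped between groups, as for 42.4% of all genes tested. The number called was 2 without Flox replicate 2 and 3 without Flox replicate 3, HepKO replicate 1 or HepKO replicate 2.

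Genes tied to the known inducers of metallothioneins were mixed. Of 10 genes around the glucocorticoid receptor, 2 rose and 2 fell, and 6 did not pass (median log2 difference 0.33). The share called over all genes tested was 20.3% in either direction. The glucocorticoid-induced gene Tsc22d3 fell from 15.2, 14.1 and 16.1 FPKM to 5.25, 5.86 and 6.13 FPKM (log2 difference -1.26, SE 0.10, limma adjusted p = 0.0010). The clock gene Per1, which glucocorticoids also induce, rose from 10.5, 7.78 and 8.80 FPKM to 15.6, 17.8 and 19.3 FPKM (log2 difference 0.89, SE 0.14, limma adjusted p = 0.0068). Only 2 of these genes were called without Flox replicate 2, Flox replicate 3, HepKO replicate 2 or HepKO replicate 3.

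Of 15 tested genes of interleukin 6 and STAT3 signalling, 5 rose and 3 fell (median log2 difference 0.22), against 20.3% called over all genes tested. Socs3, the feedback inhibitor of STAT3, rose from 13.0, 11.3 and 12.7 FPKM to 36.0, 38.2 and 42.2 FPKM (log2 difference 1.58, SE 0.11, limma adjusted p = 0.00057). Saa1, an acute phase protein gene with a near-identical copy in Saa2, fell from 205, 136 and 201 FPKM to 42.0, 65.0 and 66.6 FPKM (log2 difference -1.63, SE 0.24, limma adjusted p = 0.0053). Il6 itself was too low to be tested: it was listed at 0 in the 3 Flox livers and had 0.148, 0.116 and 0.037 FPKM in the HepKO livers.

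The genes whose pattern over the 6 libraries was most like that of Mt1, by Pearson correlation of log2(FPKM + 1), were Nrg4, Vim, Pvr, F11 and Emilin2 (r = 0.998 to 0.999). For Slc39a14 they were Angpt2, Nes, Zfp948, Iffo2 and Ehbp1l1 (r = 0.993 to 0.998). Spearman's rho was 0.943 or 1 for each of the 10, over 6 libraries. All 10 were called higher in HepKO livers, but Emilin2 (0.281 FPKM on average in Flox livers, against 1.85 FPKM in HepKO livers) reached the minimum mean of 1 FPKM only through the HepKO livers. The points share the difference between groups: of 10679 genes compared, 4.55% reached r = 0.95 with Mt1 and 1.33% with Slc39a14.

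Markers of neutrophils and erythroid cells mostly rose, while those of the other cells varied by type. Over all genes tested, 9.33% were called higher and 11% lower. Of the 5 tested neutrophil markers, 5 rose, and the 6 markers summed to 10.3 to 19.6 FPKM in Flox livers against 124 to 148 FPKM in HepKO livers, with Ly6g listed at 0 in every Flox liver. Cxcr2 among the neutrophil markers, and Itgam and Ccr2 among those of monocytes and macrophages, passed the filter only through the HepKO livers and so had to differ. Of 5 tested erythroid markers 4 rose (132 to 234 against 551 to 974 FPKM in sum), and of 4 tested monocyte and macrophage markers 3 rose (51.7 to 74.3 against 83.7 to 105 FPKM). Of 8 Kupffer cell markers 1 rose, of 6 stellate cell markers 1 rose, of 6 sinusoidal endothelial markers 2 rose and 1 fell, and of 5 cholangiocyte markers 2 rose and 1 fell. Lymphocyte markers had 1 tested gene, which rose. Their part in the differences of the members was not tested.

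Markers of the tissues in which Slc39a4 and Slc39a5 are best known were near 0 with the exception of Fabp2. The 3 exocrine pancreas markers in the table summed to at most 0.059 FPKM in any library. Of 5 intestinal markers, Vil1, Lct, Cdx1 and Cdx2 averaged at most 0.038 FPKM in either group, and Fabp2, which averaged 72.8 FPKM in Flox livers against 60.3 FPKM in HepKO livers, did not pass (limma adjusted p = 0.57).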

How the data were processed

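RNA was measured in 6 liver libraries, 3 per group, and grouped by their titles; whether each is a separate animal is unstated, so the p-values speak to the spread of these libraries only. FPKM per gene and library were computed by the authors, per the file headers. The p-value and q-value columns of the authors' deposited table are their own, from a test that no source used here names. The submitters' processing notes list, without roles, DESeq2, edgeR, StringTie 1.3.4d, HISAT2 2.0.4 and cutadapt 1.9. No source used here names the genome build; GENCODE M21 (GRCm38) holds 28396 of the 28476 gene identifiers, 25582 of those with the same coordinates, as for 8 of the 9 members (the end of Mtf1 differs), so positions are taken to be GRCm38.

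A count test was not run, since FPKM are normalized values. The most frequent ratio of low values between 2 libraries held at most 5.75% of those genes, so relative depth could not be read. Genes whose mean reached 0.5 FPKM were fitted on log2(FPKM + 1) with limma 3.58.1 (R 4.3.3), with the variance trend and genotype as the only term, two-sided, with Benjamini-Hochberg adjustment over all 12712 genes and a threshold of 0.05. Log2 differences on this scale understate the change of low genes; folds are ratios of mean FPKM. The test was tried on simulated data with known changes. A first limit on false calls, set for a single simulated draw, was exceeded by that draw. It was replaced by a wider limit on the mean over many draws. That limit was set with the mean already known, so that meeting it is no support for the test. Plots were made with matplotlib 3.10.9.

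The members and lists were chosen with earlier results of these data known. The genes named are all members, Nedd4, called genes among the other zinc transporters and metallothioneins, the 2 largest called changes of each of the copper, glucocorticoid and interleukin 6 lists, and the 5 genes most like Mt1 and Slc39a14 among those with a mean of at least 1 FPKM; others were chosen after their values were seen. Alternatives were other pseudocounts, filters, rescalings, no variance trend, each library left out in turn, and a replicate block. The level of 1 marker gene is not reported here.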

Additional observations from a re-analysis of the deposited data

How the results depend on the processing

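The calls over all genes, the members, the other zinc genes and the copper, glucocorticoid and interleukin 6 lists were recomputed under 15 alternatives; the cell type markers, the counts around the cluster and the likeness lists were not. Mt1, Mt2, Mt3 and Mt4 were called higher in all 15, with log2 differences of 1.78 to 1.97 for Mt1 and 1.56 to 1.82 for Mt2 and adjusted p-values of at most 0.011 and 0.015. Where a filter on the mean was used, Mt4 passed it only through the HepKO livers, so that those calls of Mt4 are no support for a difference. No log2 difference of a tested member, or of Nedd4, Mt3, Mt4, Gm45774, Ccs, Slc31a1, Tsc22d3, Per1, Socs3 or Saa1, changed sign in these alternatives. The number of members called higher was 2 to 3 with 1 library left out, and the number called lower, 0 in the reported fit, was 1 without the filter (Slc39a5) and 0 to 1 with 1 library left out. The other zinc transporters and metallothioneins had 5 called genes, against 2, after median-ratio rescaling and after rescaling that left aside the mitochondrial and the 50 highest genes. Without the filter, 3 copper genes and 2 glucocorticoid genes were called, against 5 and 4; more genes were then tested (26473). With 1 library left out, 2 to 6 copper genes and 2 to 5 glucocorticoid genes were called. Over all genes, 1281 to 2257 were called with 1 library left out, against 2583 (1186 higher and 1397 lower), and median-ratio rescaling gave 1505 higher and 1032 lower. The cause of these shifts was not tested.

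Replicate numbers did not pair the libraries: deviations from the group means of same-numbered libraries correlated at r = 0.0029, 0.0021 and -0.025 over 12712 genes. With the replicate block, 1551 genes were called over all, 3 copper, 2 glucocorticoid and 5 interleukin 6 genes, and Mt1, Mt2 and Slc39a14 stayed called among the members. Depth is unknown, which limits Slc39a5, Mt3, Mt4 and other genes near 0 most.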

Other observations

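Some zinc transporters that did not pass rested on a single library; they were chosen after their values were seen. Slc39a9, which encodes ZIP9, had 0.358, 0.502 and 0.447 FPKM in Flox livers and 0.607, 3.46 and 3.78 FPKM in HepKO livers (limma adjusted p = 0.084, and 0.0033 without HepKO replicate 1). Slc39a7, which encodes ZIP7, an exporter of zinc from the endoplasmic reticulum to the cytosol, had 39.6, 33.3 and 37.4 FPKM in Flox livers and 17.1, 35.2 and 18.8 FPKM in HepKO livers (limma adjusted p = 0.11, and 0.013 without HepKO replicate 2). HepKO replicate 1 lay just above the Flox range of Slc39a9, and HepKO replicate 2 lay inside that of Slc39a7; the other 2 HepKO livers lay apart from it in each gene. In each gene the library left out was the HepKO liver nearest to the Flox livers, so the p-values without it are no support for a difference. Slc39a9 averaged under 0.5 FPKM in Flox livers and was tested only through the HepKO livers, so that its p-values are no support for a difference.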
